A study of Homo sapiens with 4 samples.

Results

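The 8 subunit genes of the cytosolic chaperonin CCT, also called TRiC, were followed through ribosome footprints in HEK293, an established cell line of human embryonic kidney origin. The genes TCP1, CCT2, CCT3, CCT4, CCT5, CCT6A, CCT7 and CCT8 were taken by their symbols in GENCODE release 29, with 1 transcript listed for each. They are 8 of the 16292 transcripts listed in at least 1 library and 8 of the 9612 tested, whose mean was 5 RPKM or more. RPKM is a read count scaled by coding length and by library size. The 4 groups were RPL4 mutant cells with erythromycin, RPL4 mutant cells without it, wild type cells with erythromycin and wild type cells without it. Each group had 1 library and no replicate. RPL4 is a large-subunit ribosomal protein that reaches the tunnel through which new proteins leave the ribosome, and erythromycin is an antibiotic that binds this tunnel in bacteria.

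The protocol in the labels speaks of stable lines carrying GFP, wild type L4 or an L4 without its loop, each infected with an RPL4 or a scrambled hairpin virus. Which of these a given library carried, and the dose and time of the drug, were not stated. Library totals, inferred from the RPKM values, were 993461 and 604506 reads in the mutant with and without erythromycin. In wild type they were 2555613 and 2965243 with and without it. Mutant libraries were therefore the shallower ones, and genotype and depth cannot be told apart. RPL4 itself was at 1439 and 1707 RPKM in the mutant with and without the drug, against 2586 and 2515 RPKM in wild type with and without it (limma difference -0.72, SE 0.150, adjusted p = 0.0180). That call was lost in 5 of 14 alternatives, among them thinned reads and leaving out the mutant library with erythromycin. No RNA library stood beside the footprints, so mRNA level and translation were not separated, nor were a change in some cells of a culture and a change in all of them.

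CCT is a double ring in which each ring holds 1 copy of every subunit. It closes over a bound protein with the energy of ATP and is known for folding actin and tubulin, which few other chaperones can do. It also folds proteins built of WD repeats, such as CDC20 of the anaphase-promoting complex and the beta subunits of G proteins. Prefoldin hands it unfolded actin and tubulin, and phosducin-like proteins assist it. RPKM is per coding length, so subunits can be compared with each other within a library.

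The genes lie apart in the genome (GRCh38). TCP1, the alpha subunit and the founding member, is at chr6:159778498-159789749 on the minus strand. CCT2, the beta subunit, is at chr12:69585334-69601570 (plus), CCT3, the gamma subunit, at chr1:156308968-156367873 (minus), and CCT4, the delta subunit, at chr2:61868089-61888804 (minus). CCT5, the epsilon subunit, is at chr5:10249921-10266412 (plus), CCT6A, the zeta subunit, at chr7:56051630-56063989 (plus), CCT7, the eta subunit, at chr2:73233420-73253021 (plus), and CCT8, the theta subunit, at chr21:29055805-29073797 (minus). Coding sequences were alike in length, between 1596 bases for CCT6A and 1671 for TCP1 with the stop codon.

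The coding sequences below show how far the paralogs have drifted apart at a site that all of them keep. Capitals mark the 5 codons of a conserved motif in the ATP-binding pocket, with 2 codons on either side, as read from the GENCODE 29 transcripts. The first 4 codons give the same residues in all 8 subunits. The last gives threonine in 7 and asparagine in CCT8. The 8 genes spell the motif in 8 different ways.
TCP1: gaagttGGAGATGGAACTACTtcagtg
CCT2: gaagttGGTGATGGCACTACCtctgtt
CCT3: gaggttGGAGATGGGACCACAtcagta
CCT4: gaagcaGGAGATGGCACCACAtcagta
CCT5: gaaattGGAGATGGAACCACAggagtg
CCT6A: ataactGGTGATGGTACGACTtctaat
CCT7: gaggtgGGTGATGGCACCACCtcagtg
CCT8: gaagttGGAGATGGCACAAACtttgtt

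All 8 genes were footprinted well above the typical gene. Their levels lay between the 88.4 percentile (CCT8 in the mutant with erythromycin) and the 97.6 percentile (CCT7 in wild type with erythromycin) of the genes tested. CCT7 was highest, at 552 and 578 RPKM in the mutant with and without erythromycin, against 878 and 759 RPKM in wild type. CCT8 was lowest, at 164 and 209 RPKM in the mutant with and without the drug, against 295 and 262 RPKM in wild type with and without it. CCT7 came first, CCT2 seventh and CCT8 last in each of the 4 libraries. In CCT7 and CCT8 alike, both mutant values were below both wild type values.

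CCT3 was at 359 and 452 RPKM in the mutant with and without erythromycin, against 606 and 559.8 RPKM in wild type. CCT5, which can build a ring of itself alone when made in bacteria, was at 375 and 426 RPKM in mutant cells, against 583 and 539 RPKM in wild type cells. CCT4, which shares that ability, was at 291 and 385 RPKM in mutant cells, against 548 and 458 RPKM in wild type cells. In these 3 genes, as in CCT2, CCT7 and CCT8, the mutant library with erythromycin was the lowest of the 4 and the wild type library with it the highest.

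TCP1 was at 299 and 296 RPKM in the mutant with and without erythromycin, against 460.1 and 414 RPKM in wild type. CCT6A, whose paralog CCT6B is known from testis, was at 324 and 297 RPKM in mutant cells, against 396 and 385 RPKM in wild type cells. CCT2, which has also been described as a receptor for autophagy of protein aggregates, was at 222 and 248 RPKM in mutant cells, against 378 and 358 RPKM in wild type cells. For TCP1 and CCT6A the mutant library with the drug was not the lower of the mutant pair. CCT6B, the testis paralog, had 8 reads and 1 read in the mutant with and without erythromycin, against 11 and 8 in wild type.

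**Figure D1:**
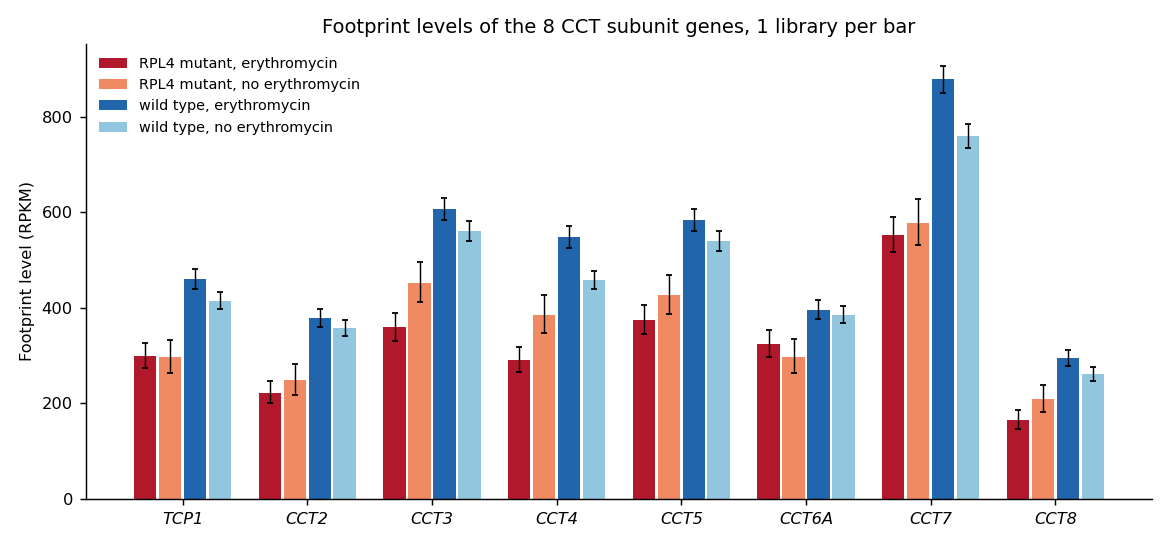
Footprint level in RPKM (vertical axis, from 0) of each CCT subunit gene in the 4 libraries, with bars for 1 library each and error lines for exact 95% Poisson intervals of the reads. CCT7 is highest and CCT8 lowest in every library, and for each gene both mutant bars are below both wild type bars, as in 21.7% of all genes tested.

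Neighbours in this order were often not told apart by counting error. In wild type without erythromycin the 95% Poisson intervals of 3 of 7 neighbouring pairs overlapped (CCT3 with CCT5, TCP1 with CCT6A, CCT6A with CCT2). In the mutant they overlapped for 4 of 7 pairs with and 5 of 7 without the drug, and in wild type with the drug for 3 of 7. These intervals cover counting error only.

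The order may also depend on reads that fit more than 1 gene, because most CCT genes have pseudogenes. Of the windows of 28 bases in each coding sequence, about the length of a footprint, 40.1% in TCP1 were found unchanged in the transcript of another annotated gene, such as the processed pseudogene TCP1P3. The share was 32.8% in CCT8 (shared with CCT8P1), 32.4% in CCT6A (shared with CCT6P3 and CCT6P1), 22.2% in CCT5, 9.97% in CCT7 and 2.01% in CCT4. It was 0 of 1581 windows in CCT2 and 0 of 1611 in CCT3. No window was shared between the 8 subunit genes themselves. How the authors counted reads that map to several places is not given in the sources used here.

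If all such reads had been dropped, levels would scale with the unshared share. Divided by that share, TCP1 in wild type without erythromycin would be at 692 RPKM in place of 414, CCT6A at 569.6 in place of 385 and CCT8 at 389 in place of 262. CCT7 stayed first in all 4 libraries under this scaling, while CCT2, not CCT8, was last in all 4. The levels of CCT2, CCT3 and CCT4 are the ones this question hardly touches, and under this scaling it cancels from ratios of 1 gene between libraries. Coding bases also overlapped exons of another gene on the opposite strand in CCT5 (125 bases), CCT4 (12) and TCP1 (8, with ACAT2). Whether counting used strand is not given in the sources used here.

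**Figure D2:**
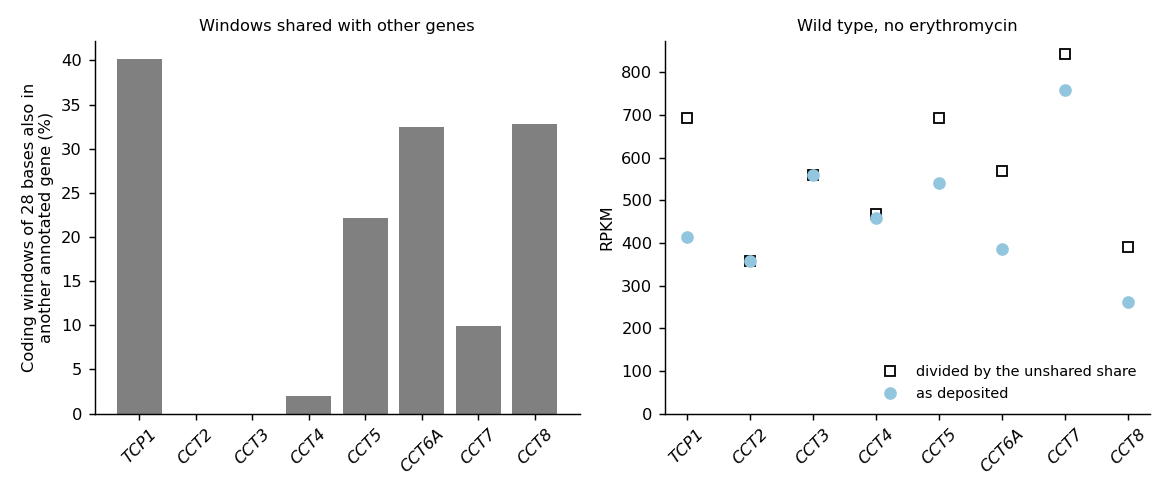
Left, the percentage of 28-base coding windows of each subunit gene that also occur in another annotated gene; right, RPKM in wild type without erythromycin as deposited (filled circles) and divided by the unshared share (open squares). TCP1 has the highest share at 40.1% and CCT2 and CCT3 have none, so their circles and squares coincide.

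The first comparison addressed how footprints differ when RPL4 is altered. All 8 subunits were lower in the mutant in both treatments. As centred log2 ratios, 7 of 8 were lower by more with erythromycin, and CCT6A was about level (-0.35 with and -0.34 without it). Summed over the 8 genes, footprints made up 0.421% (95% Wilson interval 0.409 to 0.434) and 0.471% (0.454 to 0.489) of mutant reads with and without erythromycin. In wild type the sums were 0.676% (0.666 to 0.686) and 0.609% (0.600 to 0.618). As a log2 ratio, the mutant sum over the wild type sum was -0.74 [-0.79, -0.70] with and -0.34 [-0.40, -0.29] without the drug. Brackets hold 95% counting intervals, and each ratio was centred on the median of all genes tested.

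For 8 of 8 subunits both mutant levels were below both wild type levels, a pattern found in 21.7% of all genes tested. Among the 505 other genes whose mean lay in the subunits' own range, from 233 to 692 RPKM, 45.9% had it. The median of the 8 subunits was -0.77 with and -0.33 without erythromycin, against -0.17 and -0.16 in those 505 genes and 0 over all genes tested by construction. Of those 505 genes, 69.3% had a ratio below 0 with and 68.7% without the drug. The median of the 8 subunits was below theirs in both treatments. In no comparison did a subunit reach a 2-fold difference, which 9.28% of all genes did with and 8.6% without erythromycin.

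With erythromycin, CCT4 had the lowest ratio of mutant over wild type, at -0.97 [-1.12, -0.83], and CCT6A the one nearest to 0, at -0.35 [-0.50, -0.21]. CCT8 was at -0.90, CCT2 at -0.83, CCT3 at -0.82, CCT7 at -0.73, CCT5 at -0.70 and TCP1 at -0.68. The interval of CCT6A did not meet that of any other subunit. Without erythromycin the subunits were closer together, from -0.50 [-0.70, -0.31] in CCT2 to -0.23 [-0.39, -0.07] in CCT4. CCT4 thus had the ratio nearest to 0 without the drug and the one farthest from it with the drug.

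**Figure D3:**
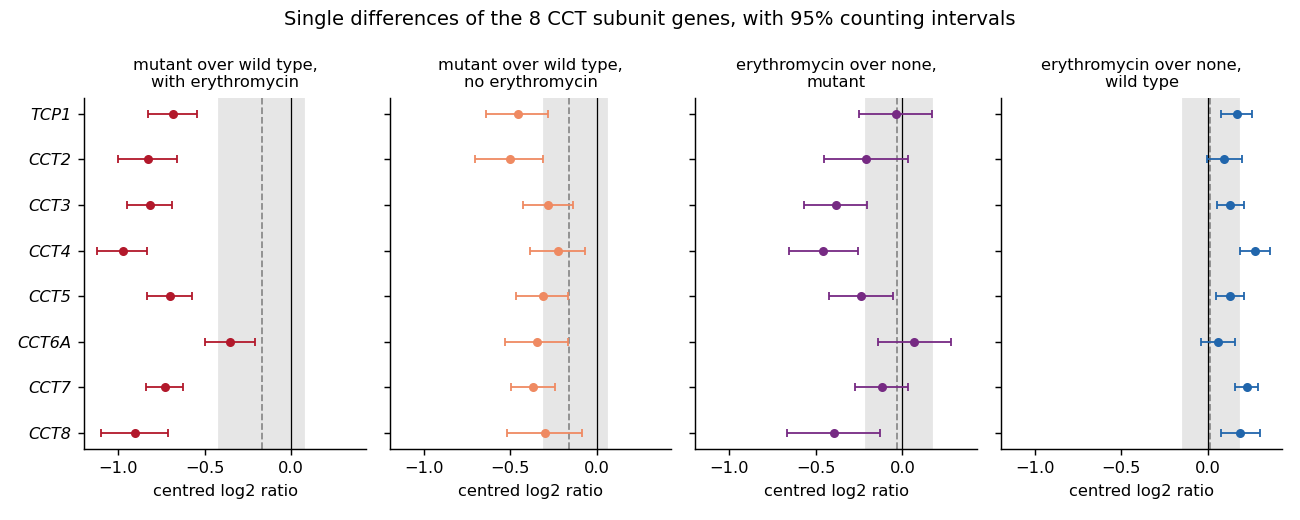
Centred log2 ratios of each subunit gene (horizontal axis) in the 4 single differences, with 95% counting intervals of the read ratio. The grey band and dashed line are the range between quartiles and the median of the 505 other genes at the same level; all 8 points are below 0 in both panels of mutant over wild type and above 0 for erythromycin in wild type.

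Over both treatments the genotype difference was tested with limma, as 2 libraries against 2 in an additive model with 1 residual degree of freedom. It ranged from -0.66 (SE 0.208) in CCT2 to -0.34 (SE 0.198) in CCT6A. None of the 8 subunits passed at a Benjamini-Hochberg adjusted p of 0.05 over all 9612 genes, of which 1.95% passed in either direction and 0.281% as lower. The smallest adjusted p of limma was 0.148 (CCT2) and the largest 0.501 (CCT6A). At an unadjusted p under 0.05, 7 of the 8 passed, all but CCT6A, against 12.4% of all genes. CCT2 passed in 1 alternative, in which no gene was filtered out (limma, adjusted p = 0.0421). In reads thinned to the depth of the smallest library the median of the 8 was -0.53, against -0.56 in all reads.

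Within the ring, the proportions of most subunits differed little between the 4 libraries. CCT7 held 21.4% (20.1 to 22.6) and 20.0% (18.5 to 21.5) of the summed RPKM in the mutant with and without erythromycin, against 21.2% (20.6 to 21.8) and 20.3% (19.7 to 20.9) in wild type. CCT8 held 6.36% and 7.22% in mutant cells, against 7.12% and 7.01% in wild type cells. Equal numbers would give 12.5% each, so the deposited levels of CCT7 and CCT8 were away from an equal split in every library. The level of CCT7 over that of CCT8 was 3.36 and 2.77 in the mutant with and without the drug, against 2.97 and 2.90 in wild type.

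Between genotypes, the shares of CCT6A and CCT4 differed most, and with erythromycin. CCT6A held 12.5% (11.5 to 13.6) of the ring's RPKM in the mutant with erythromycin and 10.3% (9.19 to 11.5) without it, against 9.56% (9.12 to 10.01) and 10.3% (9.86 to 10.8) in wild type. CCT4 held 11.2% (10.3 to 12.2) and 13.3% (12.1 to 14.6) in mutant cells, against 13.2% (12.7 to 13.7) and 12.3% (11.8 to 12.8) in wild type cells. CCT6A was thus high, and CCT4 low, in the mutant with erythromycin. As log2 ratios against the other 7 subunits, erythromycin over none in the mutant was 0.32 [0.10, 0.54] for CCT6A and -0.28 [-0.49, -0.07] for CCT4. Wild type went the other way, at -0.12 [-0.22, -0.02] and 0.12 [0.03, 0.21]. Intervals of this ratio also excluded 0 for CCT3 in the mutant and CCT7 in wild type. Set against the other 7 subunits, mutant over wild type with the drug was, on the log2 scale, 0.44 [0.28, 0.59] for CCT6A and -0.26 [-0.42, -0.11] for CCT4. The other 6 subunits had intervals that included 0 there, and without the drug this held for 8 of 8.

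CCT6A is also the gene with 32.4% of its windows in common with CCT6 pseudogenes. TCP1 and CCT8, with similar shares, were at 0.07 [-0.09, 0.22] and -0.17 [-0.37, 0.02] against the other 7. The part of shared windows in the CCT6A value was not tested.

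**Figure D4:**
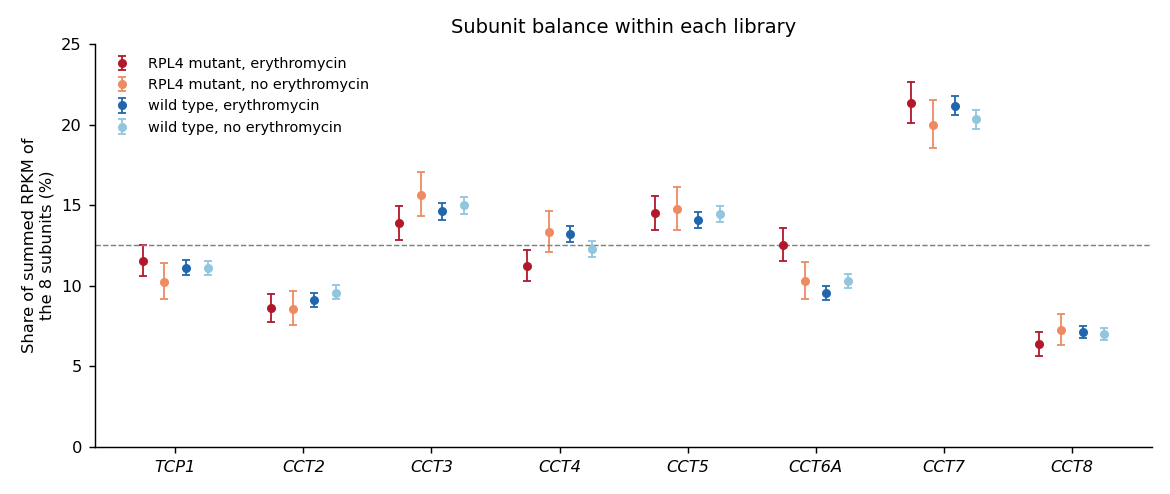
Share of each subunit in the summed RPKM of the 8 genes (vertical axis, percent) by library, with exact 95% binomial intervals; the dashed line is an equal split of 12.5%. CCT7 is near 20% to 21% in all 4 libraries, and the mutant with erythromycin stands out for CCT6A at 12.5% and CCT4 at 11.2%.

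The second comparison set erythromycin against no drug in each genotype. In wild type, all 8 subunits were slightly higher with the drug, from 0.06 [-0.04, 0.15] in CCT6A to 0.27 [0.19, 0.36] in CCT4, with a median of 0.15. The intervals of CCT6A and CCT2 (0.09 [-0.01, 0.19]) included 0. In the mutant, 7 of 8 were lower, from -0.46 [-0.66, -0.26] in CCT4 to -0.04 [-0.25, 0.17] in TCP1, with CCT6A at 0.07 [-0.14, 0.28] and a median of -0.22. These counts were 6 of 8 in the mutant when ratios were not centred, TCP1 then being above 0. In thinned reads they were 6 of 8 in the mutant and 7 of 8 in wild type. The intervals of CCT3, CCT4, CCT5 and CCT8 lay below 0 in the mutant. No subunit reached a 2-fold difference, against 3.27% of all genes in wild type and 9.61% in the mutant.

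An erythromycin ratio above 0 in wild type and below 0 in the mutant was found for 7 of 8 subunits, against 24.7% of all genes tested and 29.7% of the 505 genes at the subunits' level. The mutant response minus the wild type response had a median of -0.36 over the 8, against -0.04 in those 505 genes. It was lowest in CCT4 at -0.73 [-0.95, -0.52] and nearest to 0 in CCT6A at 0.01 [-0.22, 0.24]. Its interval lay below 0 for 6 subunits and included 0 for TCP1 and CCT6A. No subunit reached a 2-fold difference here, against 13.9% of all genes. With 1 library in each arm this difference has no replicate check.

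Over both genotypes, the limma difference for erythromycin was near 0, from -0.13 (SE 0.199) in CCT3 to 0.07 (SE 0.199) in TCP1. None of the 8 subunits passed at an adjusted p of 0.05 (0.999 for each), where 0.25% of all genes did in either direction and 0.0104% as lower. At an unadjusted p under 0.05, 0 of 8 passed, against 6.18% of all genes. The single ratios had opposite signs in the 2 genotypes for 7 of the 8, and this difference averages them. Its median over the 8, -0.05, was 0.35 without the mutant library with erythromycin and 0.15 without the wild type library lacking the drug. It was -0.21 without the mutant library lacking the drug and -0.43 without the wild type library with it. These fits had no term for genotype, so the lower levels in the mutant enter their values. Within 1 genotype, the median ratio was 0.15 in wild type and -0.22 in the mutant.

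Prefoldin and cofactor genes had a median genotype difference of -0.17, where the subunits had -0.56. Of the 9 prefoldin and cofactor genes, 0 passed in limma for the mutant, and 8 of 9 had a value below 0, against 50.6% of all genes tested. When libraries were scaled to a common sum, 7 of 9 were below 0, with a median of -0.06. PFDN5, the most footprinted prefoldin subunit, was at 554 and 562 RPKM in the mutant with and without erythromycin, against 605 and 606 RPKM in wild type. VBP1, another prefoldin subunit, was at 325 and 256 RPKM in mutant cells, against 342 and 342 RPKM in wild type cells. PFDN6 was at 243 and 250.3 RPKM in mutant cells, against 310.0 and 295 RPKM in wild type cells. The genotype difference was lowest in PFDN6, at -0.31, and highest in PFDN1, at 0.14, both subunits of prefoldin. For erythromycin 4 of 9 were below 0, against 49.9% of all genes tested, and 0 passed. As centred log2 ratios of mutant over wild type, the cofactors PDCL, PDCL3 and TXNDC9 were above 0 without the drug (0.22, 0.08 and 0.15). They were below 0 with it (-0.49, -0.44 and -0.67), a pattern chosen after its values were seen. Counting intervals included 0 for each of these cofactors without the drug and for PDCL with it. Their reads in the mutant without the drug were 26, 53 and 29.

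The mitochondrial chaperonin, a related double ring that closes with a lid of HSPE1, was also lower in both mutant libraries. HSPD1, which forms its ring, was at 364 and 430.4 RPKM in the mutant with and without erythromycin, against 623 and 641 RPKM in wild type. HSPE1 was at 394 and 455 RPKM in mutant cells, against 738 and 646 RPKM in wild type cells. Their genotype differences were -0.69 (SE 0.190, limma, adjusted p = 0.0821) and -0.72 (SE 0.193, adjusted p = 0.0758), and neither passed. Both passed in 4 of 14 alternatives, such as no filter. For erythromycin 3 of 3 measured relatives were below 0, against 49.9% of all genes tested, and 0 passed. BBS10, a chaperonin-like protein of the cilium base, had the highest difference of these relatives, at 0.02. CCT6B, CCT8L2, MKKS and BBS12 were under the filter on low values.

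Of the actin and tubulin genes whose products CCT folds, 14 of 16 passed the filter and 1 of these fell in the mutant, where 0.281% of all genes tested were called lower and 1.95% in either direction. TUBB, a beta-tubulin, was at 1358 and 1846 RPKM in the mutant with and without erythromycin, against 2261 and 2578 RPKM in wild type, and fell by 0.62 (SE 0.150, limma, adjusted p = 0.0428). The TUBB call was lost in 6 of 14 alternatives, with -0.37 without the mutant library with erythromycin and -0.54 without the wild type library lacking the drug. ACTB was at 2941 and 3987 RPKM in mutant cells, against 3743 and 4799 RPKM in wild type cells, and ACTG1 at 1853 and 2665 RPKM, against 2397 and 3353 RPKM. Neither actin gene passed for the mutant (limma differences of -0.32 for ACTB and -0.37 for ACTG1). As centred single ratios, mutant over wild type was -0.41 for ACTB and -0.43 for ACTG1 with erythromycin, and -0.24 and -0.31 without it. The fits with 1 library left out, here and for TUBB, had no term for treatment. The erythromycin difference (-0.42 for ACTB, -0.52 for ACTG1 and -0.33 for TUBB) therefore enters their values. Without the mutant library with erythromycin the actin differences were -0.07 and -0.07, and without the wild type library lacking the drug -0.15 and -0.14. Without the mutant library lacking the drug they were -0.57 and -0.66, and without the wild type library with it -0.49 and -0.60. The list's median genotype difference was -0.36, with 12 of 14 below 0, against 50.6% of all genes tested, and TUBB6 highest at 0.21. For erythromycin, 14 of 14 had a value below 0 (median -0.27), against 49.9% of all genes tested. In limma 0 of 14 passed for it, where 0.25% of all genes did, and 5 of 14 had an unadjusted p under 0.05, against 6.18% of all genes. TUBB4A was the lowest of these, at -0.99. Actin and tubulin genes have close copies, so reads may be split between them.

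Of 13 WD-repeat and other reported substrates, 0 passed for the mutant and 9 of 13 had a value below 0, against 50.6% of all genes tested. Their median was -0.17 (8 of 13 below 0 and a median of -0.05 when scaled to a common sum). GNB2 and GNB1, beta subunits of G proteins, were at 467 and 408 RPKM in the mutant with erythromycin and 487 and 439.8 RPKM without it, against 508 and 448 RPKM in wild type with the drug and 553 and 483 RPKM without it. CDC20, which activates the anaphase-promoting complex, had the lowest genotype difference at -0.46, and CCNE1, a cyclin of S phase entry, the highest at 0.27. For erythromycin 10 of 13 were below 0, against 49.9% of all genes tested, and 0 passed.

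**Figure D5:**
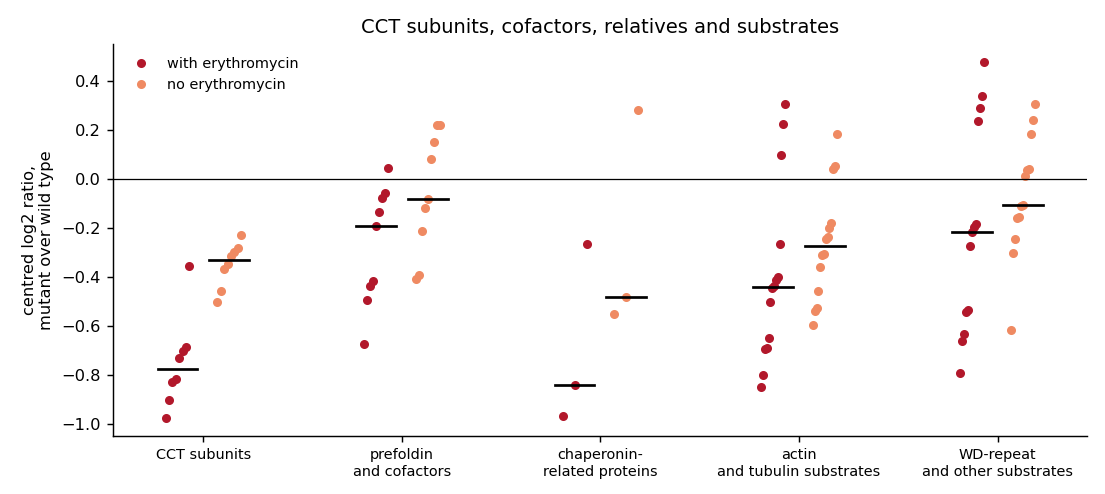
Centred log2 ratios of mutant over wild type (vertical axis) with and without erythromycin for the CCT subunits, 9 prefoldin and cofactor genes, 3 chaperonin relatives, 14 actin and tubulin genes and 13 other substrates; points are genes and black lines medians. The CCT subunits have all points below 0 in both treatments, with medians of -0.77 and -0.33.

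The gene whose profile over the 4 libraries was nearest to the mean profile of the subunits was CDK1, the kinase that drives mitosis, at a Euclidean distance of 0.0265 log2 units. It was at 242 and 268 RPKM in the mutant with and without erythromycin, against 386 and 344 RPKM in wild type. TWSG1 (0.0388), PSMD1 of the proteasome (0.0465), SERP1 (0.0520) and the ribosomal protein RPS7 (0.0580) followed, among 5562 other genes whose mean was 20 RPKM or more. The subunits themselves lay between 0.0486 (CCT5) and 0.295 (CCT6A) from their mean. A total of 611 other genes were nearer to it than CCT6A was.

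Upstream sequences were searched because all 8 genes were lower in the mutant libraries. RefSeq promoter windows (GRCh38.p14, 250 bases before to 50 after a start) were matched for 7 members, with 9 windows in all. The windows of CCT3, CCT5 and CCT7, and that of the second start of CCT2, lie wholly inside the annotated gene. For CCT5 the window is chr5:10250287-10250586, in a gene that starts at 10249921. Sequence ahead of the outer start of CCT3, CCT5 and CCT7 was not searched. A CCAAT box (CCAAT on either strand), the site of the factor NF-Y, was in 4 of the 9 windows (TCP1, CCT2, CCT3, CCT8), and in 34.6% of all 35116 windows. A heat shock element of 2 units (GAANNTTC or TTCNNGAA), the kind of site that HSF1 binds in series, was in 3 of the 9 (TCP1, a second start of CCT2, CCT4), and in 13.5% of all windows. The CCT4 match lay after the start, at position 39, and the overlapping window of its other start had none. The longer element of 3 units, which adds another alternating GAA or TTC at the same spacing and so contains the shorter, was in 0 of the 9, and in 0.490% of all. The ETS site CCGGAAG was in 1 window (CCT2), and in 10.3% of all. Sites for E2F (TTTGGCGC or TTTCCCGC), NRF1, the cAMP response element (TGACGTCA) and YY1 were searched as well, on both strands, with 0 matches in the 9 windows and matches in 2.27%, 1.24%, 1.85% and 0.849% of all.

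The upstream 250 bases of TCP1, CCT2 and CCT3 are shown because each holds a pair of matches, given in capitals (5′ to 3′ on each gene's own strand, GRCh38.p14). In TCP1 (chr6:159789603-159789852, minus) they mark a heat shock element of 2 units at -231 and a CCAAT box at -154 from the start. In CCT2 (chr12:69585209-69585458, plus) they mark a CCAAT box at -91 and an ETS site at -15. In CCT3 (chr1:156338293-156338542, minus) they mark CCAAT boxes at -75 and -34. No data on factor binding stand beside these matches.
TCP1: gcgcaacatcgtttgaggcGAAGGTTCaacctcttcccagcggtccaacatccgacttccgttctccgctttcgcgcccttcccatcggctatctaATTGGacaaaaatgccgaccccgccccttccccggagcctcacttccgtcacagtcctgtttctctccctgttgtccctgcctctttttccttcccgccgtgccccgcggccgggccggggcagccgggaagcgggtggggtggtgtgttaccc
CCT2: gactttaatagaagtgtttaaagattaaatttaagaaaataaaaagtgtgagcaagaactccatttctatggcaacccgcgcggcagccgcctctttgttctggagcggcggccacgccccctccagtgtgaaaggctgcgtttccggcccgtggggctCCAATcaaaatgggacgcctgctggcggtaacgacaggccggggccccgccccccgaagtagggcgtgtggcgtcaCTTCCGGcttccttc
CCT3: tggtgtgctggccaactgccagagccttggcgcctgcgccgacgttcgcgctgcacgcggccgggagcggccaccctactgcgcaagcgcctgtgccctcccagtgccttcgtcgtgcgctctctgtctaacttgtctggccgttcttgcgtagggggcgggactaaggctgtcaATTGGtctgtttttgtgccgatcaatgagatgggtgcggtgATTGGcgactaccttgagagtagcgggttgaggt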

How the data were processed

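The authors deposited 1 RPKM value per transcript and library. Of tools and builds, cutadapt, STAR and GRCh38 appear without versions, per the submitters' processing notes, and the read counter is not given in the sources used here. Transcripts absent from a file were read as 0. Symbols, positions and coding lengths (with the stop codon) came from GENCODE 29, which matched 16172 of 16292 transcripts. Library totals were inferred by taking the lowest products of RPKM and coding length in a library as 1 read each. With these totals, RPKM times coding length gave whole reads, within 0.001, for 99.2% of values per library. Reads, counting intervals, percentages of reads and thinning rest on them. The median was 40 and 23 reads per gene tested in the mutant with and without erythromycin, and 91 and 108 in wild type.

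Values were analysed as log2(RPKM + 1), which understates changes of low genes, for 9612 transcripts whose mean was 5 RPKM or more. Single ratios were centred on the median gene and carry 95% intervals of the read ratio (exact binomial, or a normal approximation against the other 7 and for the difference of responses). They have no p. Over arms, limma 3.58.1 (R 4.3.3) used genotype and treatment as terms, a variance trend and Benjamini-Hochberg adjustment over all genes. It was tried on simulated reads with counting noise only, which cannot show how its p-values hold in these libraries. The spread behind the limma p-values is what the genotype and treatment terms leave in each gene, shared in part between genes. With 1 library per group this remainder is the difference of responses, which may be technical. No spread between replicates was measured.

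The members and lists were chosen with earlier results of these data known. Of each list, genes past the threshold, the 3 highest by level and the extremes by effect were named. Genes outside this rule were chosen after their values were seen. Alternatives changed the pseudocount, filter, centring, depth, model terms and libraries.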

Additional observations from a re-analysis of the deposited data

Results flagged for a closer look

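For 7 of the 8 subunits, footprints were above 0 with erythromycin in wild type cells and below 0 with it in the mutant, as centred log2 ratios. With 1 library on each side this difference was not tested. The mutant response minus the wild type response was -0.73 for CCT4, -0.59 for CCT8, -0.52 for CCT3, -0.37 for CCT5, -0.35 for CCT7, -0.31 for CCT2 and -0.21 for TCP1. The same pair of signs was found in 24.7% of all genes tested. The mutant libraries held an inferred 993461 reads with and 604506 without the drug, against 2555613 with and 2965243 without it in wild type. The part of depth in the difference of responses was not tested. Thinned reads gave a median of -0.44 for the 8 subunits, but thinning keeps each gene's expected share of its library.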

How the results depend on the processing

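All 8 subunits had a value below 0 for the mutant in limma under each of the 14 alternatives, and none passed the threshold in 13 of them. The alternatives reused the same 4 libraries, in which both mutant levels of every subunit were below both wild type levels. The shared sign is thus no independent check. With no filter 1 passed (CCT2). Among the other genes named, TUBB lost its call in 6 and RPL4 in 5 of the 14, both staying below 0. The median genotype difference of the 8 subunits was -0.56, and -0.68 to -0.39 with 1 library left out in turn. The subunits' median erythromycin difference, -0.05, changed sign with the library left out. It went from -0.43 without wild type with erythromycin to 0.35 without the mutant with erythromycin. Those fits had no term for genotype, so the genotype difference enters both values.

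Counts over all genes moved more. For the mutant, 187 genes passed, against 284 with a pseudocount of 0.1 RPKM, 341 with no filter, 290 with a mean of at least 1 RPKM, 76 in reads thinned to the smallest library, 91 with no variance trend, 54 with no term for treatment and 110 to 298 with 1 library left out (110 without wild type, no drug; 298 without mutant, no drug). For erythromycin, 24 passed, against 68, 99 and 67 with the same pseudocount and filters, 42 with a mean of at least 20 RPKM, 14 scaled to a common sum, 5 in thinned reads and 0 to 2 with 1 library left out. With no variance trend or no term for genotype limma passed 0 genes for erythromycin (535 and 246 at an unadjusted p under 0.05).

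The median ratio of mutant over wild type with erythromycin, -0.77, was -0.66 with a mean of at least 20 RPKM, -0.71 with no centring, -0.63 scaled to a common sum and -0.72 in thinned reads. Without the drug, -0.33 became -0.24 scaled to a common sum. That scaling moves the median of all genes to 0.14 with and 0.08 without the drug. In thinned reads the erythromycin median in wild type was 0.20 in place of 0.15, and the difference of responses -0.44 in place of -0.36. Highest over lowest subunit, without CCT7, was 2.28 and 2.17 in the mutant with and without erythromycin and 2.05 and 2.14 in wild type. Per unshared window it was 2.76 in the mutant with erythromycin and 2.58 and 2.36 in wild type.

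The scaling by unshared windows and the leaving out of libraries were chosen after seeing the data. Models of counts, planned as 2 alternatives for each effect, were not run because the deposited values are RPKM. Reads inferred from these values were used for counting intervals, summed shares and thinning. No paired analysis was possible because each group has 1 library and the labels link none. Counting intervals show depth only, and 23 reads per gene at the median limit the mutant library without erythromycin.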
